A study of Mus musculus with 98 samples.

Results

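Prtn3, Capg, Cavin2, Serpina3g, Nxph4, Nmbr, Olfm4 and Shoc1 are 8 mouse genes that were picked for how they differed between hippocampal neurons given extra Acss2 and neurons given an empty virus. They were chosen by the log2 differences in the 6 contrasts of upACSS2 (a virus that carries Acss2) against vector in cultured neurons, with no numeric threshold stated. All 8 are named in each of the 6 deposited count tables, which share 24754 gene symbols, so they can be followed through all 98 libraries. Since those 6 contrasts chose the genes, their values are given as a description, without a test. The tests concern contrasts that the choice did not use: culture days, tau, a culture without virus and mice. Those of culture days and of tau in cells with a virus draw on the same libraries as the 6 contrasts, so they are not independent of the choice.

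ACSS2 makes acetyl-CoA from acetate. In neurons part of the enzyme is in the nucleus, where acetyl-CoA is the donor for histone acetylation, and in this way it is known to support transcription of memory-related genes. The study raised Acss2 in cultured neurons with or without added tau, in old wild-type mice and in mice that carry a tau transgene. The 8 genes belong to no common pathway. Nmbr encodes the G protein-coupled receptor of the peptide neuromedin B, and Nxph4 a secreted neurexophilin, a family known to bind alpha-neurexins at synapses. Olfm4 encodes a secreted olfactomedin-domain glycoprotein best known from gut crypts and neutrophils. Prtn3 encodes proteinase 3, a serine protease of neutrophil granules, and Serpina3g belongs to the mouse Serpina3 cluster of serine protease inhibitors. Capg encodes a gelsolin-family protein that caps actin filaments, Cavin2 a coat protein of caveolae, and Shoc1 a protein needed for meiotic crossovers.

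The neurons were primary hippocampal cells from CD1 mouse embryos, with the strain named in the labels for the unstimulated libraries. A PhP.eB virus with upACSS2 or the vector was added on day 5 for 48 hours, and after a wash on day 7 the cells received either PBS or a tau preparation named hAD-tau. Unstimulated libraries came from day 9 and day 21 (8 groups of 3), and 4 groups of 3 are labelled as stimulated on day 21, with an agent that was not given in the sources used here. A further day 21 culture without virus gave 4 libraries after hAD-tau and 3 after PBS. Aged C57BL6 males were injected at 21 to 22 months of age. At 22 to 23 months, labelled as 2 months after injection, they gave whole hippocampus 30 minutes after remote recall (12 with upACSS2, 12 with vector). Male mice of 10 months gave dorsal hippocampus 2 weeks after injection, 30 minutes after fear conditioning (6 and 5). PS19 males, in which the Prnp promoter drives a mutant human tau transgene, were injected at 2.5 months and taken 1 or 6 months later, 30 minutes after a 24-hour recall test, in 4 groups of 5. The PS19 upACSS2 mice at 1 month are labelled as whole hippocampus and the other PS19 groups as dorsal, so at that time the effects of tissue and of virus cannot be told apart. All viruses were given to mice by injection behind the eye, and neither the promoter that drives Acss2 nor the cells reached are stated. Nothing says that libraries of a group came from separate cultures, so p-values in neurons measure the spread between these samples, which may be technical.

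On GRCm38, in GENCODE coordinates, Nmbr lies on chromosome 10 from 14705591 to 14770850, Prtn3 on chromosome 10 from 79874476 to 79883174 and Nxph4 on chromosome 10 from 127525473 to 127534559. Olfm4 lies on chromosome 14 from 79984081 to 80023139, Serpina3g on chromosome 12 from 104236245 to 104241939, Capg on chromosome 6 from 72544391 to 72562983 and Cavin2 on chromosome 1 from 51289126 to 51302960. Nxph4 is on the minus strand and the other 6 of these are on the plus strand. Windows of 250 bases before a RefSeq transcript start on GRCm38.p6 were found for 6 of the 8 genes; Nxph4 and Shoc1 were not among them. RefSeq lists other transcripts of Nmbr and Capg that start further upstream, so their windows lie within the RefSeq span of the gene, and the windows of Nmbr, Capg, Prtn3 and Olfm4 lie within the GENCODE spans given above. The windows were searched on both strands for 7 motifs: the TATA box (TATAAA), the cyclic AMP response element (TGACGTCA), the AP-1 site (TGANTCA), the STAT site (TTCNNNGAA), the GC box (GGGCGG), the E-box (CACGTG) and the CCAAT box. The 4 windows with a match are shown, because they let a reader see which known motif letters precede these transcript starts. Capitals mark the matched letters, and all 4 lie on the plus strand, at chr10:14759697-14759946, chr14:80000052-80000301, chr12:104235897-104236146 and chr1:51288876-51289125.
Nmbr: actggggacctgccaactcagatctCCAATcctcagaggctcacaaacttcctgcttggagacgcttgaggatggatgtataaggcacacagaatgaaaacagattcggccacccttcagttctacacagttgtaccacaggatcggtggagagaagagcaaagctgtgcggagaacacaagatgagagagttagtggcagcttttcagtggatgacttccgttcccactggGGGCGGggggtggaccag
Olfm4: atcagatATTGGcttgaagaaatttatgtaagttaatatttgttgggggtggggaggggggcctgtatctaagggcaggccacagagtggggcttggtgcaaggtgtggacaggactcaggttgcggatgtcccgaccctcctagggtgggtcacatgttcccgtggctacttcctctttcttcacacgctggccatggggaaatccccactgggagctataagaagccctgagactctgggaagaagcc
Serpina3g: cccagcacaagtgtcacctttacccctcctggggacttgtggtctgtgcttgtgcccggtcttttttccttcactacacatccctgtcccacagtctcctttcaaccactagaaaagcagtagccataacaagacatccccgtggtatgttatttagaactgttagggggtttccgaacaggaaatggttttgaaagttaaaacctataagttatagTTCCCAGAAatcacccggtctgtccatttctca
Cavin2: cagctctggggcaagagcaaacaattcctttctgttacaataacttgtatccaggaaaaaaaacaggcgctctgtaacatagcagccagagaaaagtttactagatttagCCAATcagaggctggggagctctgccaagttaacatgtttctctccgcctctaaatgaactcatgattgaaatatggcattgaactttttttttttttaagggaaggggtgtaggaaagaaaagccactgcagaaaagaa
Counted from the transcript start of its window, Nmbr holds a GC box at -18 and a CCAAT box at -225. Serpina3g holds a match to the STAT site at -33. Cavin2 holds a CCAAT box at -140, and Olfm4 holds it on the other strand at -243. No 2 of these matches overlap. The windows of Capg and Prtn3 held none of the 7. Over 32851 windows of the same length, the CCAAT box was found in 33.8%, the GC box in 32.7%, the TATA box in 12.4%, the STAT site in 7.02%, the AP-1 site in 6.75%, the E-box in 6.02% and the cyclic AMP response element in 1.55%.

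The libraries held 5075099 to 39985460 counts. Levels are given as CPM, in which the counts of a gene are taken per size of the library after TMM scaling; each table was scaled on its own, so levels from different tables stand side by side without a test. Acss2, the gene on the virus, checks the labels: its mean was 45.9 to 53.6 CPM in the 6 neuron groups with vector and 1719 to 4401 CPM in the 6 with upACSS2. In mice it was 55.8 ± 4.20 against 44.8 ± 3.06 CPM at 10 months (SD, n = 6 and 5) and 54.4 ± 4.67 against 47.4 ± 3.39 CPM in aged mice (SD, n = 12 each), where the aged groups overlap. In PS19 upACSS2 mice it was 636 ± 646 CPM at 1 month and 109.7 ± 76.5 CPM at 6 months (SD, n = 5 each). Some of these mice were at the level of vector mice: the lowest had 60.1 CPM at 1 month and 44.95 CPM at 6 months, where vector mice had 51.5 to 66.3 CPM and 43.1 to 56.0 CPM. The treatment entry of several groups contradicts the title, and groups were taken from titles. In the neuron libraries with a virus, 10 astrocyte markers summed to 2339 to 2904 CPM on day 9 and to 3186 to 20756 CPM on day 21, so these cultures also held RNA of glia.

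**Figure D1:**
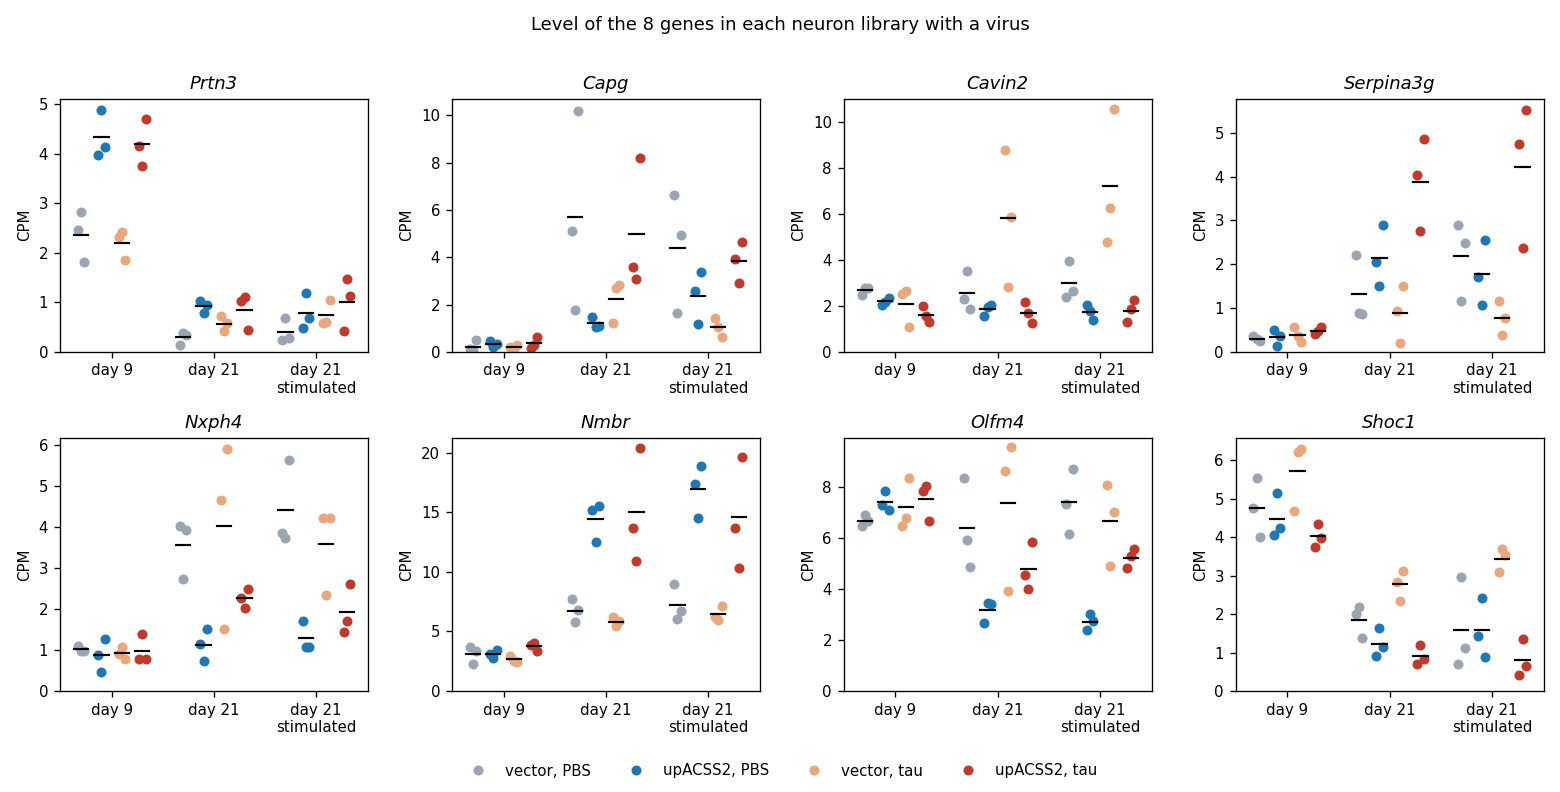
Level of each of the 8 genes in the 36 neuron libraries with a virus, 1 panel per gene, CPM on a linear axis that starts at 0. Each point is a library and each bar the mean of 3, colours give virus and treatment, and the stimulated libraries come from a table scaled on its own. Nmbr sits between 10.3 and 20.4 CPM in every day 21 library with upACSS2 and between 5.42 and 8.96 CPM in every one with vector.

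Nmbr, the neuromedin B receptor, was low on day 9 and higher on day 21, and on day 21 it was higher with upACSS2 in both treatments. With vector in PBS its level was 2.29, 3.33 and 3.71 CPM on day 9 and 5.77, 6.77 and 7.70 CPM on day 21. With upACSS2 in PBS it was 2.77, 3.06 and 3.40 CPM on day 9 and 12.5, 15.2 and 15.5 CPM on day 21. Every day 21 library was above every day 9 library of the same virus. In tau the vector libraries had 5.42, 5.86 and 6.20 CPM and the upACSS2 libraries 10.9, 13.7 and 20.4 CPM on day 21. The log2 difference of upACSS2 minus vector was 1.10 in PBS and 1.36 in tau on day 21, 1.23 and 1.18 in the stimulated cells, and -0.03 and 0.50 on day 9. These 6 differences chose the gene; 5 of them come from groups that do not overlap, and the exception is day 9 in PBS. From day 9 to day 21 Nmbr rose in all 4 groups of cells by log2 1.09 ± 0.20 (SE) in vector PBS, 2.22 ± 0.20 in upACSS2 PBS, 1.14 ± 0.21 in vector tau and 2.00 ± 0.20 in upACSS2 tau, with edgeR adjusted p of at most 0.0001576. Of the 3 tested genes for other bombesin-family receptors and ligands, Grp, the gene for gastrin-releasing peptide, fell in vector PBS (log2 -1.18 ± 0.37, adjusted p 0.0099), and the list's median was -0.48 against 0.05 over all genes. Grp also fell in vector tau (-1.30 ± 0.39, edgeR adjusted p 0.00777). In upACSS2 tau the receptor gene Grpr rose by log2 1.04 ± 0.35 (edgeR adjusted p 0.0164). There Nmb, the gene for neuromedin B, fell by 0.75 ± 0.26 (edgeR adjusted p 0.0192).

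Over the 36 neuron libraries with a virus, centred on the mean of day 9, day 21 and stimulated libraries, the gene whose log2 CPM was most like that of Nmbr was Gad2, a GABA-synthesis enzyme of inhibitory neurons (Pearson r 0.904), followed by Rxfp3 (0.898) and Tll1 (0.89). Since the libraries differ by virus, and Nmbr was chosen for that, the r is a description. On day 21 in PBS the mean of Gad2 was 285 ± 41.3 CPM for vector, against 373 ± 35.9 CPM for upACSS2 (SD, n = 3 each). Nmbr and an antisense gene, B230364G03Rik, share 15.6% of the exonic bases of Nmbr, and no strand setting is stated, so part of these counts may be of the antisense RNA.

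Nxph4, the neurexophilin, was higher on day 21 than on day 9 in 3 of 4 groups and among the unstimulated day 21 groups its mean was lowest with upACSS2 in PBS. With vector in PBS its libraries had 0.965, 0.970 and 1.10 CPM on day 9 and 2.73, 3.92 and 4.02 CPM on day 21. With upACSS2 in PBS they had 0.462, 0.881 and 1.26 CPM (7 to 24 counts) on day 9 and 0.735, 1.15 and 1.50 CPM on day 21, where the days overlap. Nxph4 rose by log2 1.79 ± 0.38 in vector PBS (edgeR adjusted p 0.000506), by 2.13 ± 0.40 in vector tau (adjusted p 0.00018) and by 1.22 ± 0.40 in upACSS2 tau (adjusted p 0.0134). In upACSS2 PBS the difference was 0.34 ± 0.43 (adjusted p 0.525). The call in upACSS2 tau was lost without day 9 replicate 1 (adjusted p 0.0566) or replicate 3 (adjusted p 0.0609) of that group. The difference of upACSS2 minus vector was -1.66 in PBS and -0.84 in tau on day 21 and -1.77 and -0.90 in the stimulated cells, and the groups did not overlap in the 2 PBS contrasts. Without day 21 vector tau replicate 3 the value of -0.84 becomes -0.47.

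Of the other neurexophilin genes, Nxph1 rose in vector PBS by log2 1.22 ± 0.13 from day 9 to day 21. Nxph3 fell in upACSS2 PBS by log2 1.46 ± 0.37 (adjusted p 0.00256). The genes most like Nxph4 over the 36 libraries were Aifm3 (r 0.861), Pisd-ps3 (0.846) and Asl (0.828).

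Olfm4, the olfactomedin glycoprotein, had like levels on both days with vector and was lower on day 21 with upACSS2. In upACSS2 PBS the libraries had 7.12, 7.30 and 7.85 CPM on day 9 and 2.66, 3.40 and 3.46 CPM on day 21. In vector PBS they had 6.47, 6.67 and 6.94 CPM on day 9 and 4.86, 5.93 and 8.39 CPM on day 21. The days did not overlap with upACSS2 and did with vector. Olfm4 fell from day 9 to day 21 by log2 1.23 ± 0.25 in upACSS2 PBS (adjusted p 0.000387) and by 0.64 ± 0.24 in upACSS2 tau (adjusted p 0.0317), and the latter call held in 2 of the 6 fits that leave out 1 library. It was lost without day 9 replicate 1 or 2 or day 21 replicate 1 or 2 of that group (adjusted p 0.0714 to 0.106). The differences with vector were -0.08 ± 0.24 in PBS and 0.04 ± 0.24 in tau (adjusted p 0.803 and 0.893). Whether the change of Olfm4 over days differed between viruses was not tested, because that difference is made of the contrasts that chose the gene. Those were -1.0 and -0.63 on day 21, -1.44 and -0.34 in stimulated cells, and 0.15 and 0.06 on day 9 (PBS and tau).

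Of 7 other olfactomedin-family genes tested, 4 rose and none fell with edgeR in vector PBS over the same days, among them Olfml2a (log2 2.04 ± 0.51) and Olfm3 (1.15 ± 0.18), with a list median of 1.15 against 0.05 over all genes. In upACSS2 PBS 2 rose and 2 fell, Olfm1 by 0.74 ± 0.19 and Olfm2 by 0.35 ± 0.13. The genes most like Olfm4 over the 36 libraries were Mturn (r 0.924), Fkbp1b (0.878) and Tacr3, the neurokinin B receptor (0.867).

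Prtn3, the neutrophil protease, was higher on day 9 than on day 21, and it was higher with upACSS2 already on day 9. On day 9 in PBS the vector libraries had 1.82, 2.45 and 2.83 CPM (30 to 80 counts) and the upACSS2 libraries 3.99, 4.14 and 4.88 CPM (74 to 95 counts). On day 21 in PBS the vector libraries had 3, 10 and 12 counts, or 0.147 to 0.385 CPM, and the upACSS2 libraries 18, 19 and 25 counts, or 0.778 to 1.02 CPM. No library of the 2 viruses overlapped on either day in PBS. Prtn3 fell from day 9 to day 21 in all 4 groups, with log2 differences of -2.95 ± 0.32 in vector PBS, -2.23 ± 0.27 in upACSS2 PBS, -1.915 ± 0.30 in vector tau and -2.31 ± 0.28 in upACSS2 tau, with adjusted p of at most 2.439e-05. The difference of upACSS2 minus vector was positive in all 6 contrasts, 0.86 and 0.93 on day 9, 1.58 and 0.54 on day 21 and 0.87 and 0.43 in stimulated cells (PBS and tau). The stimulated libraries held 5 to 42 counts: in tau the value becomes 0.058 without upACSS2 replicate 2 and in PBS it becomes 0.42 without upACSS2 replicate 2. In unstimulated day 21 tau cells the value of 0.54 becomes 0.30 without upACSS2 replicate 2 and 0.87 without upACSS2 replicate 3. On day 9 the other 7 members lay between -0.51 and 0.93, the latter being Capg with 2 to 17 counts a library in tau.

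Other neutrophil granule genes were mostly too low to test: of 14 on the list, 2 passed the filter on low counts. In vector PBS Lcn2, lipocalin 2, rose by log2 6.72 ± 1.40 from day 9 to day 21 and Mmp9, a matrix metalloprotease, fell by 1.06 ± 0.37. Of the 13 list genes found in these tables, S100a8 and S100a9 were at 0 in all 36 neuron libraries with a virus. In total 2 were at 0 in every unstimulated library and 3 in every stimulated one. The others had counts in at least 1 library. Prtn3 overlaps Plppr3, a phospholipid phosphatase-related gene on the other strand, over 159 bases, or 9.18% of its exonic bases. The mean of Plppr3 was 179 to 201 CPM in the day 9 groups and 39.2 to 51.1 CPM in those of day 21, so it was lower on day 21 as Prtn3 was; its part in the result was not tested. The genes most like Prtn3 were Gmcl1 (r 0.815), Itfg1 (0.806) and Plxnc1 (0.805).

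Serpina3g, the serine protease inhibitor, was near the limit of detection on day 9 and was highest on day 21 with upACSS2 and tau. Day 9 libraries held 2 to 15 counts. On day 21 in tau the vector libraries had 0.209, 0.937 and 1.50 CPM (4 to 34 counts) and the upACSS2 libraries 2.75, 4.03 and 4.85 CPM (60 to 111 counts). The stimulated libraries in tau had 0.378, 0.780 and 1.16 CPM with vector and 2.37, 4.75 and 5.52 CPM with upACSS2. In tau the upACSS2 libraries lay above all vector libraries in both tables, with log2 differences of 2.10 and 2.48, and in PBS they overlapped, with 0.74 and -0.27. From day 9 to day 21 Serpina3g rose by log2 2.00 ± 0.55 in vector PBS (adjusted p 0.00383), 2.58 ± 0.53 in upACSS2 PBS (adjusted p 0.000372) and 2.99 ± 0.48 in upACSS2 tau (adjusted p 3.028e-05). In vector tau the difference was 1.21 ± 0.58 (adjusted p 0.0884), and it passed without day 21 vector tau replicate 2 (1.61, adjusted p 0.0128).

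Of 5 other genes of the Serpina3 cluster tested, 4 rose over days in vector PBS, 3 in upACSS2 PBS, 4 in vector tau and 5 in upACSS2 tau, and none fell. Of all genes tested, 57.7%, 54.3%, 52.6% and 53.6% passed in either direction in these 4 groups. In vector PBS Serpina3i rose by log2 4.01 ± 0.62, Serpina3h by 3.99 ± 0.46 and Serpina3n by 2.61 ± 0.22, with a list median of 2.61 against 0.05 over all genes. Of 9 interferon-response genes tested, 8 rose in vector PBS, 3 in upACSS2 PBS, 4 in vector tau and 5 in upACSS2 tau, with none lower; Ifit3 rose by 3.43 ± 0.46 in vector PBS. Transcripts of Serpina3g share 15.5% of their 50-base stretches with 7 other genes, most with Serpina3h (8.89%), so part of its counts may come from them. On day 21 in tau other Serpina3 genes also had higher means under upACSS2. Vector first, these were 8.86 ± 2.53 and 17.27 ± 3.81 CPM for Serpina3h (SD, n = 3 each). Serpina3i had 1.73 and 4.12 CPM, Serpina3n 145 and 240 CPM, and Serpina3f 0.43 and 0.85 CPM. In stimulated tau cells each of these was again higher under upACSS2, with 6.90 and 14.65 CPM for Serpina3h. Their part in the Serpina3g difference was not tested. Astrocytes are a known source of Serpina3n, and the astrocyte marker sum was higher on day 21 than on day 9 in every library; its part in the change of Serpina3g was not tested. The genes most like Serpina3g over the 36 libraries were Ndnf (r 0.888), Kcnt1 (0.884) and Pex5l (0.867).

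Capg, the actin-capping protein, was almost absent on day 9, with 1 to 17 counts in each of 12 libraries, and was present on day 21 in all groups. On day 21 in PBS the vector libraries had 1.77, 5.10 and 10.2 CPM (46 to 357 counts) and the upACSS2 libraries 1.04, 1.10 and 1.48 CPM (22 to 36 counts). In tau the order was the opposite, with 1.23, 2.71 and 2.82 CPM with vector and 3.08, 3.60 and 8.21 CPM with upACSS2. Neither pair of groups overlapped. The log2 difference of upACSS2 minus vector was -2.24 in PBS and 1.16 in tau; without day 21 vector PBS replicate 3 the first was -1.48, and without upACSS2 tau replicate 3 the other was 0.59. In stimulated cells the differences were -0.87 in PBS, where the groups overlap, and 1.89 in tau, where they do not. From day 9 to day 21 Capg rose in all 4 groups, by log2 4.78 ± 0.69 in vector PBS, 3.48 ± 0.78 in vector tau, 3.71 ± 0.62 in upACSS2 tau and 1.82 ± 0.70 in upACSS2 PBS. The adjusted p in upACSS2 PBS was 0.0349, and this call held in 1 of the 6 fits that leave out 1 library: it was lost without any of the 3 day 9 libraries or without day 21 replicate 1 or 2 of that group (adjusted p 0.0501 to 0.0999).

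Within each unstimulated day 21 group, the astrocyte marker sum was higher where Capg was higher. On day 21 it was 4833, 8403 and 20756 CPM in the vector PBS libraries with 1.77, 5.10 and 10.2 CPM of Capg. The upACSS2 PBS libraries with 1.04, 1.10 and 1.48 CPM of Capg had 4173, 5731 and 6845 CPM. In tau the vector libraries with 1.23, 2.71 and 2.82 CPM of Capg had 3778, 5955 and 5961 CPM. The upACSS2 tau libraries with 3.08, 3.60 and 8.21 CPM of Capg had 6282, 7732 and 11777 CPM. Between groups Capg did not always follow the sum. It was 1.04 to 1.48 CPM in the upACSS2 PBS libraries, with sums up to 6845 CPM. In the vector tau libraries, with sums up to 5961 CPM, Capg was 1.23 to 2.82 CPM. None of the 10 markers was at 0 in any of these libraries. The sum of 12 microglia markers, other cells that express Capg, was 18.03 to 51.8 CPM in the unstimulated libraries. The part of astrocyte RNA in the Capg values was not tested, and more cells of a type and more RNA per cell cannot be told apart in bulk samples. B4galt1 (r 0.871), Wwtr1 (0.871) and Daam2 (0.866) were the genes most like Capg. Of 7 other gelsolin and capping-protein genes tested, Gsn, gelsolin, rose in vector PBS by log2 4.22 ± 0.33 and Svil by 1.26 ± 0.15, Flii fell by 0.44 ± 0.09, and the list median was 0.10.

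**Figure D2:**
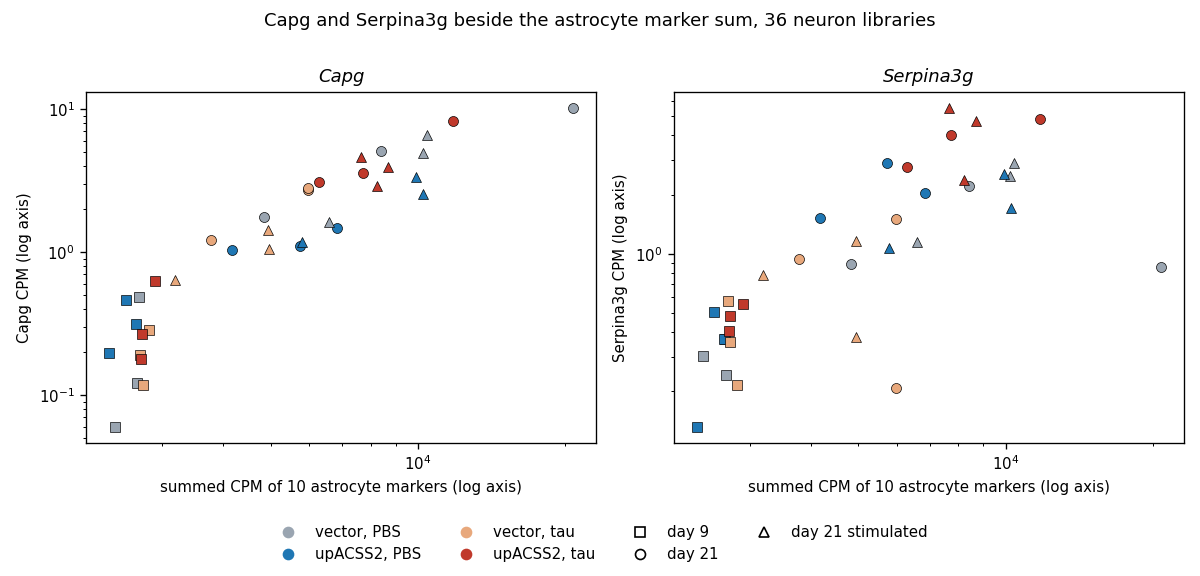
Capg (left) and Serpina3g (right) in CPM against the summed CPM of 10 astrocyte markers in the 36 neuron libraries with a virus, both axes on a log scale. Colours give virus and treatment and shapes give day 9, day 21 and stimulated day 21. The day 9 libraries sit together at sums of 2339 to 2904 CPM, and the day 21 vector PBS library with the highest sum, 20756 CPM, has the highest Capg level, 10.2 CPM.

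Cavin2, the caveolar coat protein, was higher on day 21 in vector cells given tau than in any other unstimulated group by mean level. There the libraries had 2.82, 5.86 and 8.79 CPM, against 1.86, 2.31 and 3.50 CPM with vector in PBS and 1.27, 1.70 and 2.15 CPM with upACSS2 in tau. In the stimulated cells the vector tau libraries had 4.79, 6.28 and 10.6 CPM, the vector PBS libraries 2.39, 2.64 and 3.95 CPM and the upACSS2 tau libraries 1.28, 1.85 and 2.27 CPM. The vector tau libraries lay above all upACSS2 tau libraries in both tables. The difference of upACSS2 minus vector was negative in all 6 contrasts, -1.79 on day 21 and -2.00 stimulated in tau, -0.46 and -0.81 in PBS, and -0.28 and -0.38 on day 9. Cavin2 rose from day 9 to day 21 in vector tau by log2 1.48 ± 0.34 (edgeR adjusted p 0.00124). The differences in the other 3 groups were -0.06 ± 0.34, -0.25 ± 0.36 and 0.08 ± 0.37. The day 21 vector tau libraries also gave the difference of -1.79 by which Cavin2 was chosen, so this rise is not independent of the choice. Of 8 other caveola genes tested, 7 rose and 1 fell in vector PBS and likewise in upACSS2 PBS, 5 rose and 1 fell in vector tau, and 7 rose in upACSS2 tau. In vector PBS Cavin1 rose by log2 2.51 ± 0.41 and Cav1 by 2.11 ± 0.24, where Cavin2 did not pass the test. The sum of 10 markers of endothelial cells, which are rich in caveolae, was 3.30 to 14.98 CPM in the unstimulated libraries and 4.21 to 8.04 CPM in the stimulated ones. Cldn5 was the only 1 of the 10 at 0 in all stimulated libraries, and 0 of the 10 were so in the unstimulated ones. The genes most like Cavin2 were Cyb561 (r 0.844), Mbtps2 (0.837) and Ric3 (0.833).

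Shoc1, the meiotic crossover protein, was counted in every neuron library with a virus, at 11 to 155 counts, and was lower on day 21 than on day 9. In vector tau its level was 4.69, 6.21 and 6.30 CPM on day 9 and 2.35, 2.85 and 3.13 CPM on day 21. In upACSS2 tau it was 3.74, 3.97 and 4.35 CPM on day 9 and 0.699, 0.830 and 1.19 CPM on day 21. The 2 viruses did not overlap in tau on either day. Shoc1 fell from day 9 to day 21 by log2 1.37 ± 0.22 in vector PBS, 1.86 ± 0.24 in upACSS2 PBS, 1.04 ± 0.22 in vector tau and 2.13 ± 0.25 in upACSS2 tau, with adjusted p of at most 0.000483. The difference of upACSS2 minus vector was negative in all 6 contrasts: -0.51, -1.60 and -2.08 in tau and -0.09, -0.58 and -0.07 in PBS for day 9, day 21 and stimulated cells. In PBS 2 of these signs turn with 1 library: the day 9 value becomes 0.02 without vector replicate 2, and the stimulated value becomes 0.78 without vector replicate 2, 0.20 without upACSS2 replicate 3 and 0.0037 without upACSS2 replicate 1. Of 8 other meiotic genes tested, 1 rose and 2 fell in vector PBS: Sycp3 (log2 1.03 ± 0.29), Smc1b (-2.36 ± 0.47) and Hfm1 (-0.89 ± 0.28).

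Outside these 36 libraries Shoc1 was nearly absent: 58 of 62 libraries held 0 counts and the other 4 held 1 count. A count of 0 allows up to 3 counts, or 0.0902 to 0.591 CPM in these tables. In the GENCODE annotation of GRCm38 the gene is listed as AI481877, on chromosome 4 from 59043753 to 59138983 on the minus strand, and Gng10, a G protein gamma subunit gene on the plus strand, ends 1849 bases away. In RefSeq only 84 bases lie between the 2 genes. No strand setting is stated, and whether reads of Gng10 entered the Shoc1 counts was not tested. Gng10 shows the same split between tables, with 1254 to 3485 counts in the neuron libraries with a virus and 0 to 21 counts in all other libraries. The 2 neuron tables with a virus list 25239 symbols and the other 4 about 55367, so they were counted over different gene lists, and a Shoc1 level in one kind of table cannot be set against the other. Within the neuron tables, the mean of Gng10 was 109 to 114 CPM on day 9 and 66.7 to 80.1 CPM on day 21. The genes most like Shoc1 were Wfs1 (r 0.853), Tomt (0.837) and Lyrm7 (0.836).

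The order of the 12 neuron groups by mean level shows how far single groups stand apart. The ratio of the highest to the lowest group mean was 28.6 for Capg, 14.9 for Prtn3, 13.9 for Serpina3g, 7.07 for Shoc1, 6.41 for Nmbr, 5.09 for Nxph4, 4.46 for Cavin2 and 2.76 for Olfm4. Of the 11 pairs of neighbours in that order, 2 did not overlap for Prtn3, Nmbr and Shoc1, 1 for Capg, Nxph4 and Olfm4, and 0 for Cavin2 and Serpina3g. No such count was made over all genes, so these numbers are a description and not a result about the members. Gaps between viruses come from the contrasts that chose the genes. For Nmbr the gaps lay between the lowest day 21 group with upACSS2, 14.4 CPM, and the highest with vector, 7.25 CPM, and between the lowest day 21 group, 5.83 CPM, and the highest of day 9, 3.75 CPM. For Capg the gap lay between the lowest day 21 group, 1.04 CPM, and the highest of day 9, 0.360 CPM. For Nmbr and Capg all other neighbours overlapped, so no finer order can be read for these 2 genes.

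Taking all members over the culture days, 6 of 8 passed the test in vector PBS (4 rose, 2 fell), where 57.7% of all 14863 genes tested passed. In upACSS2 PBS 6 passed (3 rose, 3 fell; all genes 54.3%), in vector tau 6 (4 rose, 2 fell; all genes 52.6%) and in upACSS2 tau 7 (4 rose, 3 fell; all genes 53.6%). Most genes tested changed between these days, so a changed member is no rarity. Nmbr and Capg rose in all 4 groups, Capg in upACSS2 PBS with a call that most fits without 1 library lose, and Prtn3 and Shoc1 fell in all 4. The day 21 libraries are also part of the contrasts that chose the members.

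**Figure D3:**
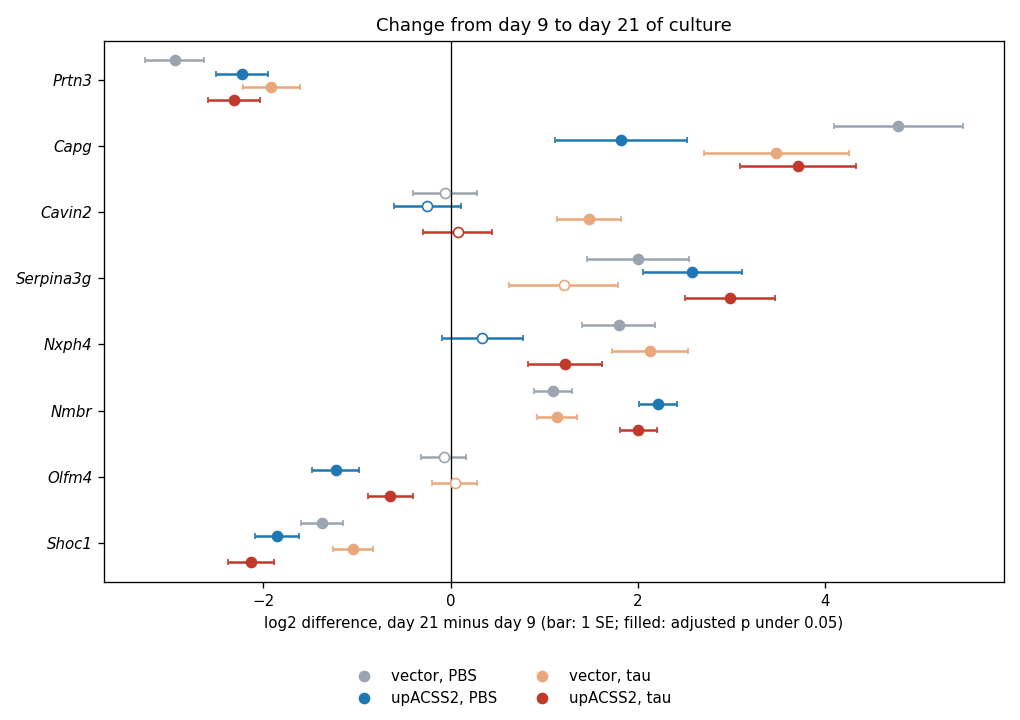
Log2 difference of day 21 minus day 9 for each gene in the 4 combinations of virus and treatment, with bars of 1 SE from the edgeR fit and n = 3 libraries a group. Filled points have an adjusted p under 0.05. Prtn3 and Shoc1 lie below 0 in all 4 combinations, Capg and Nmbr above 0, and the filled points of Olfm4 are the 2 with upACSS2, both below 0.

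Tau against PBS changed few of the 8 genes. On day 9 no member passed with edgeR or DESeq2, either with vector (0.00673% of all genes passed with edgeR) or with upACSS2 (0%; DESeq2 called 0 genes), and 0 had an unadjusted p under 0.05. On day 21 with vector 0 members passed, where 0.195% of all genes did, and with upACSS2 0, where 0.0538% did. With vector 4 members had an unadjusted edgeR p under 0.05, as did 3240 of all 14863 genes. With upACSS2 it was 3 members, and 2278 of all 14863 genes. DESeq2 called 1 member in each, Cavin2 with vector, where it called 3.08% of all genes, and Capg with upACSS2, where it called 1.26%. Cavin2 on day 21 with vector differed by log2 1.20 ± 0.33 (adjusted p 0.0843), and Capg with upACSS2 by 2.04 ± 0.54 (adjusted p 0.107). Capg lay higher with tau in upACSS2 cells and lower with tau in vector cells (-1.36 ± 0.50, adjusted p 0.139), and the mean astrocyte marker sum lay the same way.

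In stimulated cells with vector 1 member passed, Cavin2, where 3.02% of all 14939 genes did. Cavin2 was 7.20 ± 2.99 CPM with tau and 3.0 ± 0.84 CPM with PBS (SD, n = 3 each; log2 1.25 ± 0.31, edgeR adjusted p 0.0494), and the groups did not overlap. The vector tau libraries are those that gave Cavin2 its difference of -2.00 between viruses, by which it was chosen, so this test is not independent of the choice. The call was lost without tau vector replicate 1 or 3 or PBS vector replicate 1 or 3 (0.87 to 1.47, adjusted p 0.0687 to 0.204) and when only these 2 groups entered the fit (adjusted p 0.121). Same-numbered libraries deviated together in this comparison, and with the replicate number as a block 3 members passed: Cavin2 (1.22, adjusted p 0.039), Capg (-1.89, adjusted p 0.0286) and Serpina3g (-1.50, adjusted p 0.0171). Without the block Capg was -2.06 ± 0.52 (adjusted p 0.0525), with 0.642, 1.06 and 1.42 CPM in tau below 1.62, 4.94 and 6.61 CPM in PBS. The astrocyte marker sum of the same libraries was 3186 to 4948 CPM in tau and 6585 to 10429 CPM in PBS, and 2 of its 10 genes, Gfap and Aldh1l1, passed as lower. Ehd2, another caveola gene, fell by log2 0.78 with an adjusted p of 0.043, so it moved against Cavin2. In stimulated cells with upACSS2 0 members passed, where 0.208% of all genes did. There 2 members had an unadjusted edgeR p under 0.05, as did 2132 of all 14939 genes. DESeq2 called 1 member, Olfm4, and 3.12% of all genes. Olfm4 was nearest, with 4.83, 5.29 and 5.59 CPM in tau above 2.39, 2.75 and 3.03 CPM in PBS (log2 0.94 ± 0.20, adjusted p 0.0761).

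Levels in stimulated and unstimulated day 21 cells are set side by side only. Of 32 pairs of a member and a group, 0 were without overlap, against 21.2% of 58660 pairs over the 14665 genes tested in both tables. The ratio of the stimulated to the unstimulated mean lay between 0.462 and 1.97. The tables were scaled separately and no test was made. For orientation, the share of all genes past the same edgeR threshold for upACSS2 against vector, which the choice used, was 0.0135% on day 9 in PBS, 0.00673% on day 9 in tau, 10.6% on day 21 in PBS, 3.55% on day 21 in tau, 0.208% stimulated in PBS and 0.937% stimulated in tau; nothing is read from the members' values against it.

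In the day 21 culture without virus, 6 members passed the filter on low counts and 0 passed the edgeR test of tau against PBS (2 unadjusted, 0 by DESeq2), as did 0% of 16341 genes, of which 2272 had an unadjusted p under 0.05 and 308 passed with DESeq2. Nxph4 had 1.73, 1.78, 2.35 and 2.52 CPM with tau and 2.85, 3.71 and 3.80 CPM with PBS, without overlap (log2 -0.71 ± 0.25, adjusted p 0.323). Cavin2 had 0.624 to 0.911 CPM in the 4 tau libraries and 0.675, 1.01 and 4.23 CPM with PBS (log2 -1.47 ± 0.59, adjusted p 0.341), so its difference rests on 1 PBS library. Capg lay higher with tau (2.30, 10.8, 16.4 and 21.5 CPM against 3.73, 8.94 and 10.4 CPM; log2 0.74 ± 0.69, adjusted p 0.604), and the astrocyte marker sum was 7587 to 14557 CPM with tau and 2368 to 10371 CPM with PBS. The microglia marker sum was 61.3, 168, 493 and 670 CPM in the tau libraries with 2.30, 10.8, 16.4 and 21.5 CPM of Capg, and 92.3, 353 and 325 CPM in the PBS libraries with 3.73, 8.94 and 10.4 CPM. The part of astrocytes or microglia in these Capg values was not tested. Prtn3, Nmbr and Olfm4 differed by -0.59 ± 0.53, -0.60 ± 0.46 and -0.49 ± 0.30 (log2 ± SE), and none of the 3 passed the test. Serpina3g held 1 to 5 counts a library here.

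In mice none of the members passed a test of upACSS2 against vector. In aged mice 6 members were tested, with log2 differences from -0.13 to 0.23. The level of Nmbr was 3.94 ± 0.995 CPM under upACSS2, compared with 3.90 ± 1.27 CPM under vector (SD, n = 12 each; log2 0.0047 ± 0.16, edgeR adjusted p 0.997), and Cavin2 8.29 ± 1.64 against 7.42 ± 1.11 CPM (0.16 ± 0.10, adjusted p 0.913). In mice of 10 months 4 members were tested, with differences from 0.05 to 0.21. Capg was 2.51 ± 0.75 against 2.10 ± 0.85 CPM (SD, n = 6 and 5; log2 0.21 ± 0.29, edgeR adjusted p 0.846). In PS19 mice 5 members were tested, with differences from -0.45 to 0.23 at 1 month and from -0.27 to 0.31 at 6 months. Capg spread widely there, at 3.62 ± 2.38 CPM in vector mice at 1 month and 5.38 ± 2.85 CPM at 6 months (SD, n = 5 each). The sum of 12 microglia markers in the same mice was 481 to 1469 CPM at 1 month and 718 to 1724 CPM at 6 months, and its part in the Capg values was not tested. In each of these 4 contrasts 0 members passed with edgeR or DESeq2 and 0 had an unadjusted p under 0.05, and the share of all genes past the threshold was 0%, with 846 of 15157 genes at an unadjusted p under 0.05 in aged mice, 1204 of 13629 at 10 months, 463 of 15850 at 1 month and 2237 of 15850 at 6 months. DESeq2 called 0, 3, 1 and 129 genes in these contrasts. From 1 to 6 months 0 of 5 members passed with vector (7.46% of all genes) or with upACSS2 (0.0442%), and 0 in the interaction of virus and time (0% of all genes, 1956 unadjusted, 3 by DESeq2); the members' differences lay between -0.31 and 0.76. The difference over time with upACSS2 and the interaction also set dorsal against whole hippocampus, so time and tissue cannot be told apart in them.

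Members too low to test in mice are given as raw counts. Serpina3g held 0 to 12 counts a library in aged mice, 0 to 3 at 10 months and 0 to 25 in PS19 mice. Nxph4 held 1 to 12 counts at 10 months and 1 to 26 in PS19 mice, and Prtn3 2 to 8 counts at 10 months. Shoc1 held 0 or 1. No difference was tested at these counts. Nmbr, Olfm4, Capg and Cavin2 were tested in every mouse table.

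**Figure D4:**
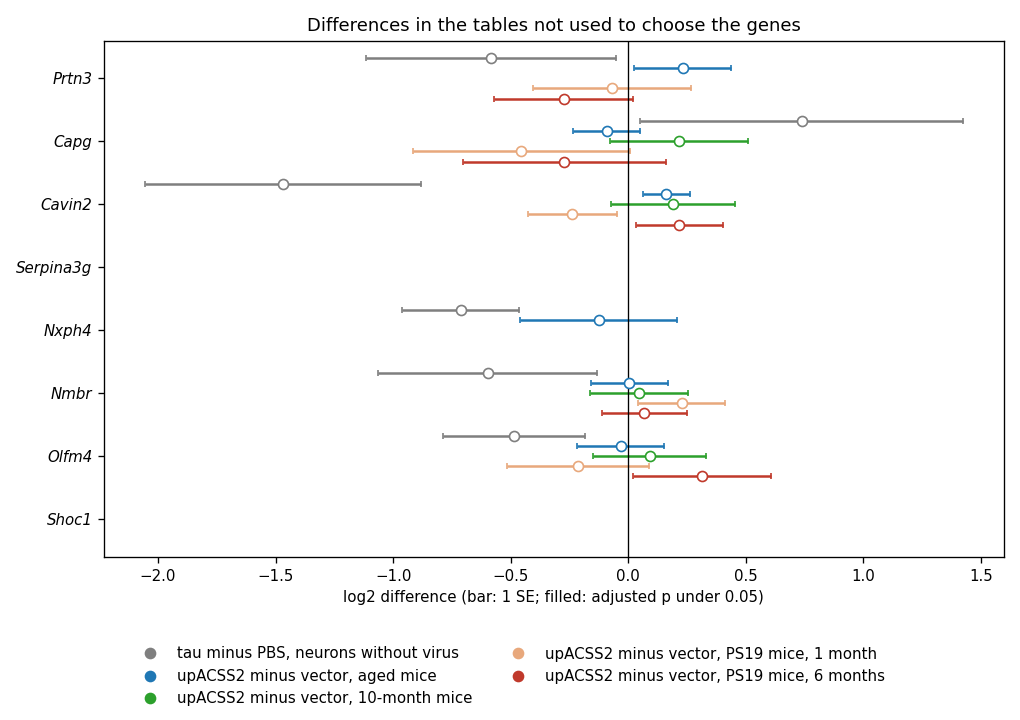
Log2 differences of the tested members in the 4 tables that did not choose them, with bars of 1 SE: tau minus PBS in neurons without virus, and upACSS2 minus vector in aged, 10-month and PS19 mice. Open points have an adjusted p of 0.05 or more; no point is filled, and Serpina3g and Shoc1 have no points because their counts were too low to test.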

How the data were processed

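The authors deposited raw read counts per gene symbol, 1 column per library, in 6 tables. Per the labels' protocols, total RNA was extracted with Trizol and a column and made into libraries with an NEB kit. The submitters' processing notes name STAR, featureCounts, HTSeq, DESeq2 and mm10 without versions or order; the strand setting is not given in the sources used here. In the table without virus a row with no gene name held 6.13% to 8.74% of the counts and was left out. No pair of libraries in a group agreed within sampling noise.

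Each table was fitted once over all its groups with edgeR 4.0.16 in R 4.3.3: TMM scaling, the default filter on low counts by group, the quasi-likelihood F test, two-sided, and Benjamini-Hochberg adjustment over all genes tested at 0.05. In all, 18 comparisons were tested and 6 that chose the members were only described. The members and the lists of related and marker genes were chosen with earlier results of these data known. Named genes were the 8 members, Acss2, list genes past the threshold (at most 4 per list and comparison, by size of change), and per member the 3 genes with the highest r over 36 libraries. Likeness used log2 CPM with a prior count of 2 and candidates with a mean of at least 1. A few other genes (Plppr3, Gng10, Gad2, Cldn5, S100a8 and S100a9) were named after their values were seen. One gene that the naming rule picks is not reported here. The edgeR step was tested on simulated data.

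Alternatives were a fit with DESeq2 1.42.0, scaling by RLE, no filter on low counts, a fit of only the groups compared, a replicate block, leaving out single libraries (aged mice excepted) and, in aged mice, replicate sets. Same-numbered libraries deviated together (each correlation over 0.1) in the culture without virus (0.22 to 0.394), among the stimulated cells in tau for upACSS2 against vector (0.111 to 0.359) and among those with vector for tau against PBS (0.123 to 0.326), and not in the other comparisons.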

Additional observations from a re-analysis of the deposited data

Results flagged for a closer look

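Each member was searched in groups of 4 to 10 libraries, 51 pairs of a member and a group in all. The gap between the most extreme library and its neighbour was compared with the range of the group. Pairs from the same group share their libraries. The cutoffs mark about 1 in 20 groups of normally distributed values, which low counts are not. A library with 1 count among libraries with 0 is always marked, so the number of marked pairs cannot be set against that share. Single libraries stood apart in 9 of these pairs, with 1 to 40 counts in the library concerned except for Capg. Capg was 10.3 CPM (180 counts) in vector replicate 3 of the PS19 mice at 6 months; the others of that group had 2.93 to 4.99 CPM. Nmbr was 1.58 CPM (40 counts) in tau replicate 3 of the culture without virus, against 0.559 to 0.720 CPM. Nxph4 was 1.89 CPM (26 counts) in vector replicate 4 of the PS19 mice at 1 month, against 0.0793 to 0.378 CPM. Prtn3 was 0.696 CPM (8 counts) in vector replicate 5 of the PS19 mice at 1 month and 1.05 CPM (10 counts) in upACSS2 replicate 2 at 6 months. Serpina3g was 1.48 CPM (17 counts) in vector replicate 5 at 1 month and 1.22 CPM (25 counts) in vector replicate 2 at 6 months. Shoc1 was 0.048 CPM in tau replicate 4 of the culture without virus and 0.0508 CPM in vector replicate 4 of the PS19 mice at 6 months, which is 1 count in each, while the other libraries of these groups held 0.

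Capg on day 21 had opposite log2 differences of upACSS2 minus vector in PBS (-2.24) and in tau (1.16), with groups that did not overlap in either. The difference between these values was not tested, since both contrasts were used to choose the gene.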

How the results depend on the processing

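Of the 18 tested comparisons, 14 kept a count of members past the threshold within 1.5 times its main value under every alternative run, and no difference past the threshold changed sign. The exceptions were 4 of the comparisons of tau with PBS. On day 21 with upACSS2, 0 members became 1 with DESeq2 (Capg). On day 21 with vector, 0 became 1 with DESeq2 (Cavin2) and 0 to 2 members when a library was left out, 2 without PBS vector replicate 2 and 1 without PBS vector replicate 1 or tau vector replicate 2. In stimulated cells with upACSS2, 0 became 1 with DESeq2, without the filter on low counts and with only the groups compared (Olfm4 each time), and 2 with the replicate number as a block (Olfm4 and Serpina3g); the numbers do not pair the samples there. In stimulated cells with vector, 1 member (Cavin2) became 3 with DESeq2, 2 without the filter, 0 with only the groups compared and 3 with the replicate block, and 0 to 4 when a library was left out: 0 without PBS vector replicate 1 or 3 or tau vector replicate 1 or 3, and 4 without PBS vector replicate 2. Of all genes, DESeq2 called 10.1% in this comparison, against 3.02% with edgeR. The share of all genes was not counted under the other alternatives. The replicate block changed no other count of members. Scaling by RLE size factors changed no call. In aged mice Nxph4 was -0.13 with all replicates and 0.30 with replicates 4 to 12 only, neither past the threshold. The cause of these differences was not tested. Counts under 10 in some libraries limit the precision for several members. Among these are Capg and Serpina3g on day 9, Prtn3 on day 21 in vector cells, and Serpina3g on day 21 in vector tau cells and in the culture without virus. In mice they are Serpina3g, Nxph4, Prtn3 and Shoc1.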
